A study of Homo sapiens with 12 samples.

Results

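The genes described here are 6 genes of NAD synthesis and nicotinamide metabolism, QPRT, NAMPT, NMNAT1, NADSYN1, NADK and NNMT, out of 57865 features in an RNA-sequencing table of ES-2 cells. They are the rows whose gene name equals one of these symbols, and they were selected on pathway membership with their FPM by siRNA group in these 12 libraries already known, so their own levels and differences are given as a description and not as a test. ES-2 is an established line from an ovarian cancer, grown in DMEM with fetal bovine serum. Each of 4 groups held 3 libraries of total RNA: cells given control siRNAs (siC) or a pool of siRNAs against 1 of the paralogous RNA-binding proteins, with siI1 for IGF2BP1, siI2 for IGF2BP2 and siI3 for IGF2BP3. The labels give no dose or time of transfection, and do not say if replicates are separate cultures; the p-values here therefore reflect only sample-to-sample spread, which may be technical. In this bulk RNA, fewer cells that express a gene and less RNA per cell cannot be told apart.

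NAD is the main electron carrier of catabolism and the substrate of enzymes that split it, such as PARPs, sirtuins and CD38. Cells make it from tryptophan through quinolinate, which QPRT turns into nicotinic acid mononucleotide, or recycle nicotinamide through NAMPT, the rate-limiting enzyme of salvage. NMNAT1, the nuclear adenylyltransferase, serves both routes, NADSYN1 adds the amide at the end of the tryptophan and nicotinic acid routes, and NADK phosphorylates NAD to NADP. NNMT removes nicotinamide from the cycle by methylating it with S-adenosylmethionine, and it is known as a gene of mesenchymal and stromal tumor cells.

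Start regions are shown for QPRT, the gene of the tryptophan route that differed most, and for NADSYN1, the most abundant of the 6. Both serve the tryptophan route, and their levels differed from siC by unlike amounts. Each window runs from 250 bases before to 50 bases after a start of transcription, from RefSeq on build GRCh38.p14, and 5 of the 6 genes had such a window (all but NNMT). The QPRT window is chr16:29678930-29679229 and the NADSYN1 window chr11:71452953-71453252, both on the plus strand, and capitals mark matches to GGGCGG, the GC box, on either strand.
QPRT: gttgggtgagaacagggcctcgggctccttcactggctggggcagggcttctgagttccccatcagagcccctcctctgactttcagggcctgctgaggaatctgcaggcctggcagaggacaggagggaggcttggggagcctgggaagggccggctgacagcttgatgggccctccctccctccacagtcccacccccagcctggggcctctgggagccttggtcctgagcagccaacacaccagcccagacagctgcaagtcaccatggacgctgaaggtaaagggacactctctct
NADSYN1: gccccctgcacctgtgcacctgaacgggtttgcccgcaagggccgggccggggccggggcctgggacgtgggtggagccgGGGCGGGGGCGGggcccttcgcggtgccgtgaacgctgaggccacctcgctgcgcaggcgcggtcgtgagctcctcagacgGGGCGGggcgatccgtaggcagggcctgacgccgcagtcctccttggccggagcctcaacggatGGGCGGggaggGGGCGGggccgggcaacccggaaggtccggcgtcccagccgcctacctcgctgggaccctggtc
The NADSYN1 window held 5 GC boxes and 34 CpG dinucleotides at 76.7% GC. The QPRT window held 0 GC boxes and 3 CpG dinucleotides at 64% GC, and a second RefSeq start of QPRT held 0 and 1. A GC box was present in 45% of 35116 windows of this length, and the median window held 14 CpG dinucleotides. Neither the QPRT windows nor the NADSYN1 window held TATAAA (11.5% of windows), TGANTCA, the AP-1 element (7.71%), or CCAAT (34.6%) on either strand. Of the other genes, the NAMPT window held 3 GC boxes and 38 CpG dinucleotides and the NMNAT1 window 1 and 27. The NADK windows held 1, 5 and 0 GC boxes, with 6, 36 and 5 CpG dinucleotides. These matches describe the windows only, and a link to the levels was not tested.

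Levels are in FPM, the authors' depth-scaled unit of fragments, from libraries of 3299360 to 11304060 reads, where 3 reads correspond to 0.324 to 0.727 FPM. The siRNAs lowered IGF2BP1 to 25.2%, IGF2BP2 to 16.8% and IGF2BP3 to 19.2% of the siC mean in siI1, siI2 and siI3, each without overlap with siC. IGF2BP3 also lay at 64.7% in siI1 and 63.5% in siI2, IGF2BP1 at 127% in siI2, and IGF2BP2 at 111% in siI1 and 129% in siI3. These did not overlap siC either, and none was called by limma. After correction for GC content and length, the log2 differences of IGF2BP3 were -0.09 in siI1 and -0.14 in siI2. VIM, KRT8, KRT18, CD44 and FN1, markers of this mesenchymal-like carcinoma line, lay between 36.5 and 998 FPM in every library, and CD3E, CD14, VWF, ALB, APOA1 and HBB reached at most 15 reads, while CDH5, an endothelial cadherin, lay at 54.8 to 149 FPM. In siC replicates 1 and 3, a gene's level relative to its mean over all libraries fell with the GC content of its transcript, with slopes of -0.46 and -0.43 (log2 per 10 points of GC), against 0.03 in siC replicate 2 and -0.09 to 0.21 in the knockdowns. Values corrected for GC content and length are therefore given beside the differences from siC of the 6 genes and of the other NAD genes called.

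QPRT was high after knockdown of IGF2BP1 or IGF2BP2 and low in the other groups. It lay at 11.8, 13.4 and 8.93 FPM in siC replicates 1 to 3, at 46.4, 38.7 and 43.8 FPM in siI1, at 59.2, 36.4 and 42.9 FPM in siI2, and at 14.6, 18.8 and 10.1 FPM in siI3. All 6 libraries of siI1 and siI2 lay above all 6 of siC and siI3, while siI3 overlapped siC and siI1 overlapped siI2. The siC mean was 11.4 ± 2.25 FPM (SD, n = 3), against 43 ± 3.93 FPM for siI1, 46.2 ± 11.7 FPM for siI2 and 14.5 ± 4.35 FPM for siI3. On the log2(FPM + 1) scale, which understates the change of low genes, QPRT was higher than in siC by 1.84 (SE 0.25) in siI1 and by 1.92 (SE 0.25) in siI2. In siI3 the difference was 0.30, with a 95% interval of -0.22 to 0.83. After correction for GC content and length the 3 differences were 1.62, 1.79 and 0.12.

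**Figure D1:**
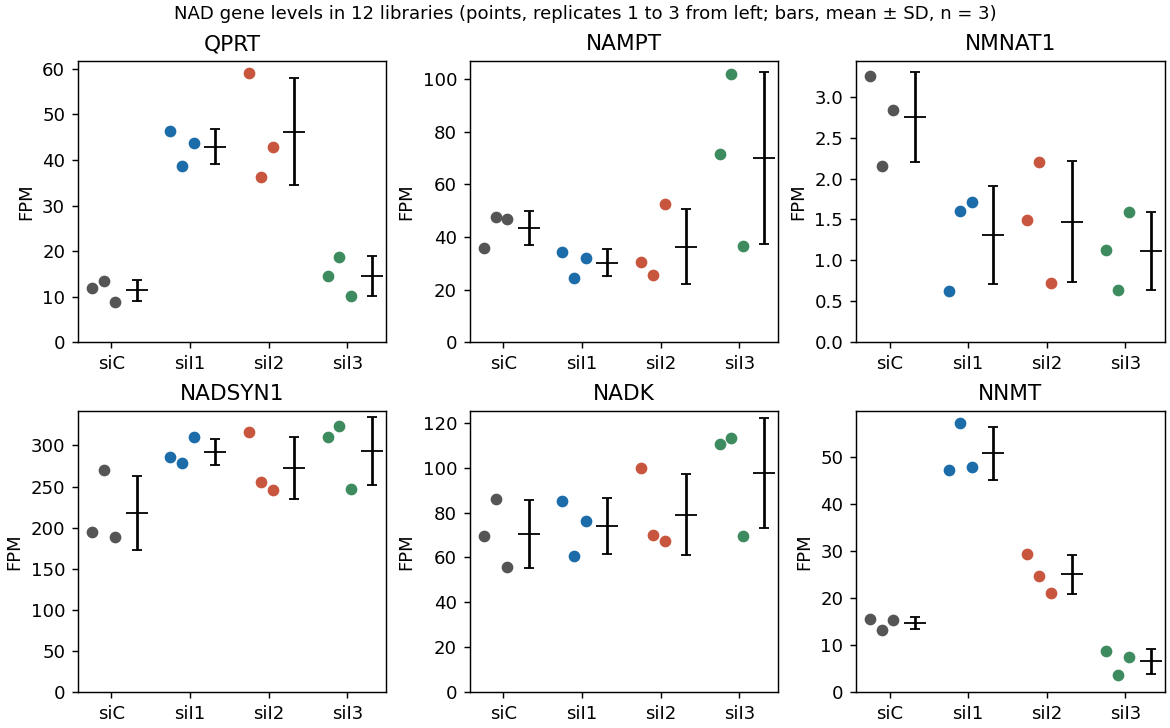
Levels of the 6 genes in FPM (vertical axes, from 0) in the 3 libraries of each group, with points for replicates 1 to 3 from left to right and bars for mean ± SD (n = 3). QPRT is high in siI1 and siI2, NNMT falls into 4 separate groups of points, and the other 4 genes overlap more.

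NNMT took a different level in each of the 4 groups. Its values were 15.5, 13.3 and 15.3 FPM in siC, 47.2, 57.3 and 48 FPM in siI1, 29.4, 24.8 and 21.1 FPM in siI2, and 8.70, 3.56 and 7.44 FPM in siI3. The order was siI1 above siI2 above siC above siI3, and no library of one group overlapped another group. The mean of 50.8 ± 5.57 FPM in siI1 (SD, n = 3) was 346% of the siC mean of 14.7 ± 1.25 FPM, that of 25.1 ± 4.15 in siI2 was 171%, and that of 6.57 ± 2.68 in siI3 was 44.7%. The log2 differences from siC were 1.72 (SE 0.26) in siI1, 0.72 (SE 0.26) in siI2 and -1.12 (SE 0.26) in siI3, and 1.77, 0.84 and -0.98 after correction. NNMT was therefore higher in siI1 but lower in siI3 than in siC, with 2.84 log2 units between siI1 and siI3 (SE 0.26).

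NAMPT, the salvage enzyme, was highest on average in siI3 and lowest in siI1, with a wide spread within siI2 and siI3. It lay at 35.8, 47.5 and 46.8 FPM in siC, at 34.3, 24.5 and 32 FPM in siI1, at 30.7, 25.7 and 52.6 FPM in siI2, and at 71.6, 102 and 36.5 FPM in siI3. siI1 lay just below siC without overlap, and siI2 and siI3 each overlapped siC, siI3 through replicate 3 alone. The log2 differences from siC were -0.51 (SE 0.32) in siI1, -0.30 (SE 0.32) in siI2 and 0.57 (SE 0.32) in siI3. NAMPT has a transcript of 36.3% GC, the lowest of the 6, and after correction the differences became 0.14, 0.30 and 1.06, so the sign turned in siI1 and siI2. Without siI3 replicate 3 the uncorrected difference of NAMPT in siI3 rose from 0.57 to 0.97 (limma adjusted p = 0.0258). NAMPTL, a near-identical copy whose reads the counting may have split from NAMPT, was listed at 10.6 and 7.99 FPM in siC replicates 1 and 3, the libraries with the steep GC slopes, at 2.70 FPM in siC replicate 2 and at 1.12 to 4.41 FPM in the knockdowns. Summed, both came to 50.5 ± 4.23 FPM for siC (SD, n = 3), 31.7 ± 5.12 FPM for siI1, 39.3 ± 13.9 FPM for siI2 and 71.7 ± 33.2 FPM for siI3.

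The enzymes of the shared last steps, NADSYN1, NMNAT1 and NADK, are given next, and none was called against siC in the main fit. NADSYN1, at 195, 269.8 and 188 FPM in siC, lay at 286.5, 279.1 and 310.1 FPM in siI1, at 315.8, 256 and 246 FPM in siI2 and at 309.7, 323.4 and 246.5 FPM in siI3. siC replicates 1 and 3 were the lowest of the 12 libraries for NADSYN1, and siC replicate 2 lay among the knockdown libraries of siI2 and siI3. Its log2 differences from siC were 0.44 (SE 0.19) in siI1, 0.33 (SE 0.19) in siI2 and 0.44 (SE 0.19) in siI3, and 0.18, 0.15 and 0.22 after correction for its GC content of 57.4%, the same as that of QPRT. NMNAT1 was the scarcest of the 6, with 3 to 28 reads per library. It was measured at 3.25, 2.16 and 2.84 FPM in siC and at 0.621 to 2.2 FPM in the 9 knockdown libraries. Its means were 47.7%, 53.6% and 40.7% of the siC mean in siI1, siI2 and siI3, without overlap with siC in siI1 and siI3. At these levels the log2(FPM + 1) scale understates the change. On recovered reads edgeR gave -1.05, -0.78 and -1.25, and called none of these. The read filter asks for a set level in at least 3 libraries, counted over all groups. For NMNAT1 all 3 siC libraries but only 2 of siI1, 1 of siI2 and 1 of siI3 reached it, so it did not pass through siC alone. Many knockdown libraries lay below that level, and the log2 differences of -0.72, -0.63 and -0.84 (SE 0.33 each) are to be read with that in mind. Corrected, they were -0.49, -0.35 and -0.52. NADK, which makes NADP, lay at 69.5, 86.2 and 55.9 FPM in siC, at 85.3, 60.8 and 76.1 FPM in siI1, at 99.9, 70.0 and 67.4 FPM in siI2 and at 110.4, 113.2 and 69.5 FPM in siI3. All 3 knockdowns overlapped siC for NADK, with log2 differences of 0.08, 0.16 and 0.45 (SE 0.24 each), and -0.16, 0.0041 and 0.26 after correction. Without siI3 replicate 3 the uncorrected difference of NADK in siI3 was 0.68 (limma adjusted p = 0.0468).

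**Figure D2:**
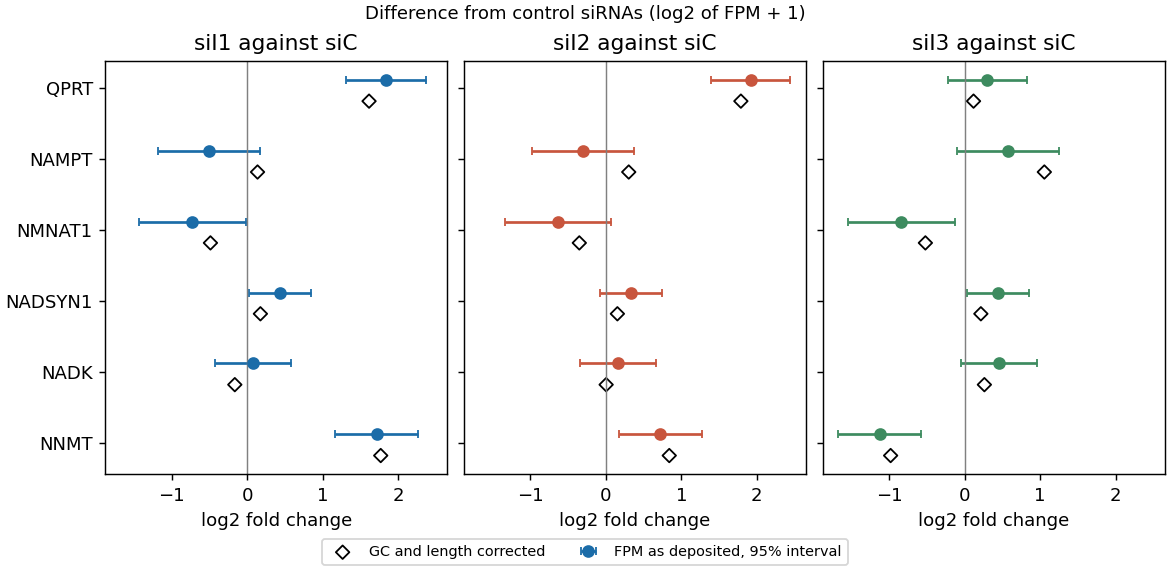
Log2 fold changes of the 6 genes against siC on the log2(FPM + 1) scale (horizontal axes) for each knockdown, with filled points and 95% intervals from limma and open diamonds for values corrected for GC content and length. QPRT is at 1.84 and 1.92 in siI1 and siI2, and NNMT runs from 1.72 in siI1 to -1.12 in siI3.

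A gene was called where limma, fitted over 13782 genes, gave an adjusted p below 0.05. All 6 genes were tested. Against siC, 2 of 6 were called in siI1 (QPRT and NNMT, both higher), 1 of 6 in siI2 (QPRT, higher) and 1 of 6 in siI3 (NNMT, lower), where 8.18%, 1.51% and 10.6% of all genes were called. The levels of 5, 2 and 2 of the 6 did not overlap between the knockdown and siC, against 32.8%, 20.1% and 29.3% of all genes. These contrasts chose the genes, so nothing is read from the shares. QPRT kept its calls in siI1 and siI2, and NNMT its call in siI1, whichever 1 of the 12 libraries was dropped. The call of NNMT in siI3 was lost without siC replicate 1 (log2 difference -1.08), siC replicate 3 (-1.09) or siI3 replicate 2 (-0.79). With siC replicates 1 and 3 both left out, siC replicate 2 was the lone control and was assumed to vary like the other groups; QPRT then differed by 1.61 in siI1 and 1.69 in siI2, and NNMT by 1.86 in siI1 and -0.99 in siI3, and none of these was called. In the authors' deposited table, QPRT has a log2 fold change of 1.91 in siI1 (FDR 1.7e-06) and 2.01 in siI2 (FDR 2.1e-06). For NNMT the authors' deposited table gives 1.79 in siI1 (FDR 4.2e-06), 0.77 in siI2 (FDR 0.67) and -1.17 in siI3 (FDR 0.055).

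The knockdowns were also set against each other. The fold of such a comparison uses no control library, while its SE and calls come from the fit over all 12 libraries and so use the spread of siC too. Between siI1 and siI2, 0 of 6 genes were called by limma, against 2.40% of all genes, and 1 had an unadjusted p below 0.05. For the same comparison edgeR called 0 and DESeq2 called 1, and the share of all genes that DESeq2 called is not given here. QPRT differed there by -0.08, with a 95% interval of -0.60 to 0.45. NNMT was higher in siI1 than in siI2 by 0.997 (SE 0.26) without overlap, and it was called when only the 6 libraries compared were fitted, and after correction for GC content and length (0.93). Between siI1 and siI3, 2 of 6 were called (7.05% of all genes), QPRT at 1.54 (SE 0.25) and NNMT at 2.84. NAMPT was lower in siI1 than in siI3 by 1.08 on the log2 scale without overlap (limma log2 difference -1.08, SE 0.32), and was not called by limma. NAMPT was called there by edgeR (-1.22) and DESeq2 (-1.21), with RLE (-1.10) or upper-quartile scaling (-1.14), and without siI2 replicate 2, siI2 replicate 3 or siI3 replicate 3 (-1.48), and after GC and length correction it was at -0.92 and not called. Between siI2 and siI3, 2 of 6 were called (2.00% of all genes), QPRT at 1.62 (SE 0.25) and NNMT at 1.85 (SE 0.26). After correction QPRT differed by 1.498 and 1.67 in these last comparisons and NNMT by 2.75 and 1.82.

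Per kilobase of the longest annotated transcript, NADSYN1 was the most abundant of the 6 at a mean of 74.4 FPM per kb over all libraries. NADK followed at 22 FPM per kb, then NNMT at 13, QPRT at 12.3, NAMPT at 9.82 and NMNAT1 at 0.44. Among 13782 genes tested, NADSYN1 ranked 609 and NMNAT1 12364 on that scale. NNMT, QPRT and NAMPT stood close together in the mean over all libraries, and the spread between groups of each was wider than the gaps between them.

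Across the 12 libraries, QPRT and NNMT had a Pearson correlation of 0.712 in log2(FPM + 1), and NNMT and NAMPT one of -0.796. These are descriptions over points that share libraries, depth and the GC slopes. The genes most like QPRT among 9319 genes averaging 5 FPM or more were SV2A, a synaptic vesicle protein (r = 0.955), PXDN, a peroxidase that crosslinks collagen IV (0.951), and ITGA5, the fibronectin receptor subunit (0.943). SV2A, for example, had means of 8.36, 21.2, 26.4 and 11.8 FPM in siC, siI1, siI2 and siI3. Among the 3 genes most like NNMT were FBN1, the fibrillin of elastic microfibrils (0.986), and HEG1, an endothelial membrane protein (0.956). FBN1 had means of 22.1, 64.6, 40.9 and 12.1 FPM in the same order, and HEG1 of 19.3, 108, 32.3 and 10.6 FPM. NAMPT was most like CTBP2 (0.929), MAFG (0.927) and CAMTA2 (0.905), NADSYN1 most like KRBA1 (0.968), ABHD17A (0.968) and RPL18 (0.964), NADK most like HIST1H2AI (0.981), HIST1H3D (0.978) and LRRC41 (0.972), and NMNAT1 most like UTP6 (0.960), RBM6 (0.956) and NGDN (0.954).

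The genes next to QPRT and NNMT did not follow them across all 3 knockdowns. Their differences from siC are given without the GC and length correction. In GENCODE release 29, the nearest tested coding gene before QPRT, on the same strand, is SPN, the leukocyte sialoglycoprotein CD43, with means of 5.06, 14.6, 7.33 and 1.55 FPM in siC, siI1, siI2 and siI3. SPN rose in siI1 (log2 difference 1.39, limma adjusted p = 0.0135) and fell in siI3 (-1.20, limma adjusted p = 0.0274), while in siI2 it was at 0.50 (limma adjusted p = 0.342). The order of the SPN means was that of NNMT and not that of QPRT. On the other side of QPRT, the kinesin KIF22 had means of 118, 142, 130 and 148 FPM and was not called in any knockdown (limma adjusted p = 0.295 to 0.741, n = 3). Beside NNMT, the exonuclease REXO2 fell in siI3 (-1.48, limma adjusted p = 0.0275), as NNMT did, and was at -1.12 in siI1 (limma adjusted p = 0.0766), where NNMT was higher. On the other side of NNMT, USP28 was at -0.695, -0.908 and -0.892 in siI1, siI2 and siI3, and was not called (limma adjusted p = 0.172 to 0.296). The only annotated gene overlapping NNMT with a value, an antisense RNA, had at most 2 reads in any library.

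**Figure D3:**
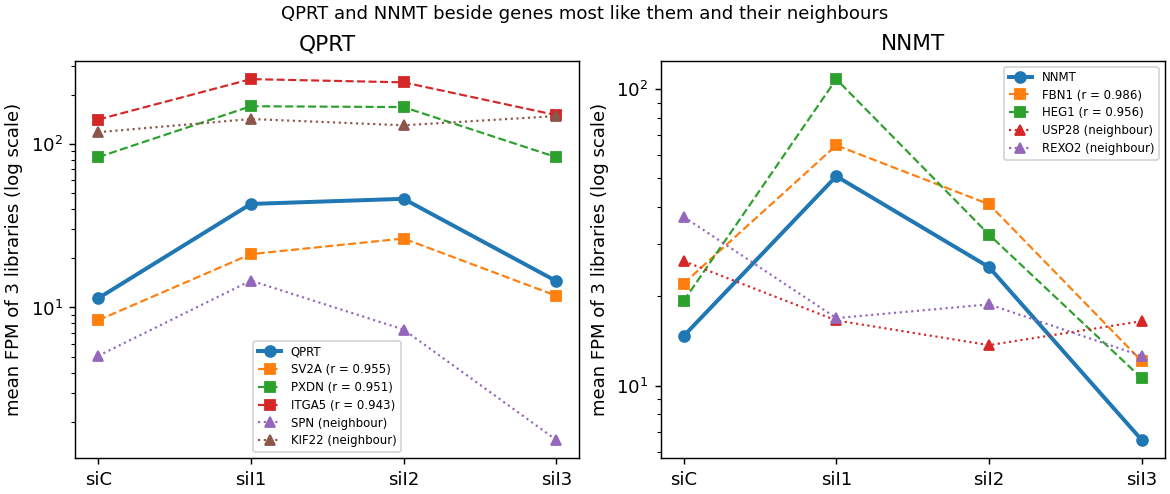
Mean FPM of 3 libraries per group (vertical axes, log scale) for QPRT and NNMT (thick lines), genes among the 3 most correlated with each (dashed, 3 for QPRT and 2 for NNMT, with Pearson r over 12 libraries) and the nearest tested coding genes on either side (dotted). The dashed lines follow QPRT and NNMT by construction, SPN peaks in siI1, and KIF22 runs from 118 to 148 FPM.

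Around these 6 genes, 67 further genes of NAD supply and use were listed by function, 65 had a row in the table and 47 were tested. In siI1, 2 of the 47 rose and 7 fell, in siI2 1 rose and 2 fell, and in siI3 0 rose and 8 fell (limma adjusted p below 0.05). Over all 13782 genes 519 rose and 609 fell in siI1, 79 and 129 in siI2, and 317 and 1143 in siI3, so that calls in siI3 were mostly lower over all genes too. The median log2 differences of the 47 were -0.24, -0.27 and -0.28, against -0.05, -0.09 and -0.05 for all genes tested. After the GC and length correction 3 rose and 4 fell in siI1, 1 rose and 1 fell in siI2, and 1 rose and 5 fell in siI3, with medians of -0.04, -0.08 and -0.12. Over all genes with corrected values, 536 rose and 414 fell in siI1, 119 and 86 in siI2, and 372 and 576 in siI3. Their corrected medians were 0.009, 0.003 and 0.024. Most of the steps from tryptophan to quinolinate, the substrate of QPRT, were close to undetected: IDO1 and KMO had 0 to 3 reads per library, IDO2 0 to 6, KYNU 0 to 7 and HAAO 0 to 10. ACMSD, which diverts the route away from quinolinate, had 0 to 3 reads. AFMID, the formamidase of the route, was measured at 28.2 FPM over all libraries and was not called. SLC7A5, the transporter that brings in tryptophan and the most abundant of its list per kilobase, fell in siI1 to 142 ± 11.5 FPM, against a siC mean of 265.9 ± 71.7 FPM (SD, n = 3; log2 difference -0.87, SE 0.23, limma adjusted p = 0.0313), and its corrected difference was -1.25.

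In salvage and the nicotinic acid route, 1 of 6 tested genes rose and 1 fell in siI1, and 1 rose and 1 fell in siI2. NMNAT2, the paralog of NMNAT1 outside the nucleus, had a siC mean of 14.9 ± 0.73 FPM and rose to 25.3 ± 3.43 FPM in siI1 (0.72, limma adjusted p = 0.0424, corrected 0.77) and 38.6 ± 2.95 FPM in siI2 (1.31, SE 0.21, limma adjusted p = 0.0055, corrected 1.43; SD, n = 3). NT5E, the ectonucleotidase CD73 that releases nucleosides from nucleotides such as nicotinamide mononucleotide, fell in siI2 to 54.2 ± 8.4 FPM against 159.8 ± 42.5 FPM in siC (-1.52, SE 0.23, limma adjusted p = 0.00435, corrected -1.20; n = 3). PNP, which can split nicotinamide riboside, fell in siI1 by 0.86 on the log2 scale (limma adjusted p = 0.0253), and its corrected value of -0.53 was not called. SLC29A1, a nucleoside transporter and the most abundant of this list per kilobase at 58 FPM per kb, was not called in any knockdown. NMNAT3 had 0 to 4 reads per library. Of 7 genes of NAD phosphorylation, repair and mitochondrial transport, 0 were called in any of the 3 knockdowns (1, 1 and 4 at an unadjusted p below 0.05, and edgeR called 0, 0 and 1), the most abundant per kilobase being the epimerase gene APOA1BP, also named NAXE, at 84 FPM per kb.

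Around NNMT, 3 of 7 tested genes of nicotinamide oxidation and the methyl cycle fell in siI1 and 2 in siI3. In siI1 these were AOX1, the aldehyde oxidase that acts on methylated nicotinamide (-1.21, limma adjusted p = 0.0264, corrected -0.98), MAT2A, the catalytic subunit that makes S-adenosylmethionine (-1.07, limma adjusted p = 0.0321, corrected -0.79), and MTAP of methylthioadenosine salvage (-0.89, limma adjusted p = 0.0373, corrected -0.38 and not called). In siI3, MAT2B, the regulatory subunit of the same synthetase, fell to 5.86 ± 1.85 FPM against 31.9 ± 6.43 FPM in siC (-2.28, SE 0.34, limma adjusted p = 0.00177, corrected -1.80; SD, n = 3), and AHCYL1 fell by 0.86 on the log2 scale (limma adjusted p = 0.025, corrected -0.67). AHCY, which clears the product of methylation and was the most abundant of the list per kilobase at 115 FPM per kb, was not called.

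Among consumers of NAD, the 13 tested PARP and tankyrase genes gave 0 up and 1 down in siI1, 0 up and 1 down in siI2, and 0 up and 5 down in siI3. TIPARP, a mono-ADP-ribosyltransferase, fell in siI1 to 8.56 ± 0.871 FPM against 25.3 ± 9.07 FPM in siC (-1.40, SE 0.27, limma adjusted p = 0.00497; corrected -1.01; SD, n = 3). PARP4 fell in siI2 (-0.87, limma adjusted p = 0.031, corrected -0.56) and in siI3 (-0.79, limma adjusted p = 0.0222, corrected -0.45), and neither was called after correction. The others in siI3 were PARP2 (-1.83, limma adjusted p = 0.0284, corrected -1.45), PARP14 (-1.28, limma adjusted p = 0.00625, corrected -0.90), PARP12 (-0.68, limma adjusted p = 0.0458, corrected -0.79) and the tankyrase TNKS (-0.83, limma adjusted p = 0.0449, corrected -0.49), of which PARP12 and PARP14 were also called after correction. PARP1, the main nuclear PARP and the most abundant per kilobase at 29.6 FPM per kb, was not called. Of 6 tested sirtuins SIRT1 alone was called, in siI1 (-1.15, limma adjusted p = 0.0364, corrected -0.65 and not called), and SIRT6, the most abundant per kilobase at 19.6 FPM per kb, was not called. BST1, a surface enzyme that cleaves NAD and the most abundant of 3 tested glycohydrolase genes per kilobase, was highest in siI1 and lowest in siI3, like NNMT, with means of 22.9 ± 1.1 and 4.5 ± 1.77 FPM there, 11.1 ± 2.41 FPM for siC and 9.68 ± 2.52 FPM for siI2 (SD, n = 3). BST1 rose in siI1 (1.0, limma adjusted p = 0.0401, corrected 1.26) and fell in siI3 (-1.17, limma adjusted p = 0.0226, corrected -0.83), and it was called in both after correction. CD38, the related enzyme, had 0 to 3 reads per library.

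**Figure D4:**
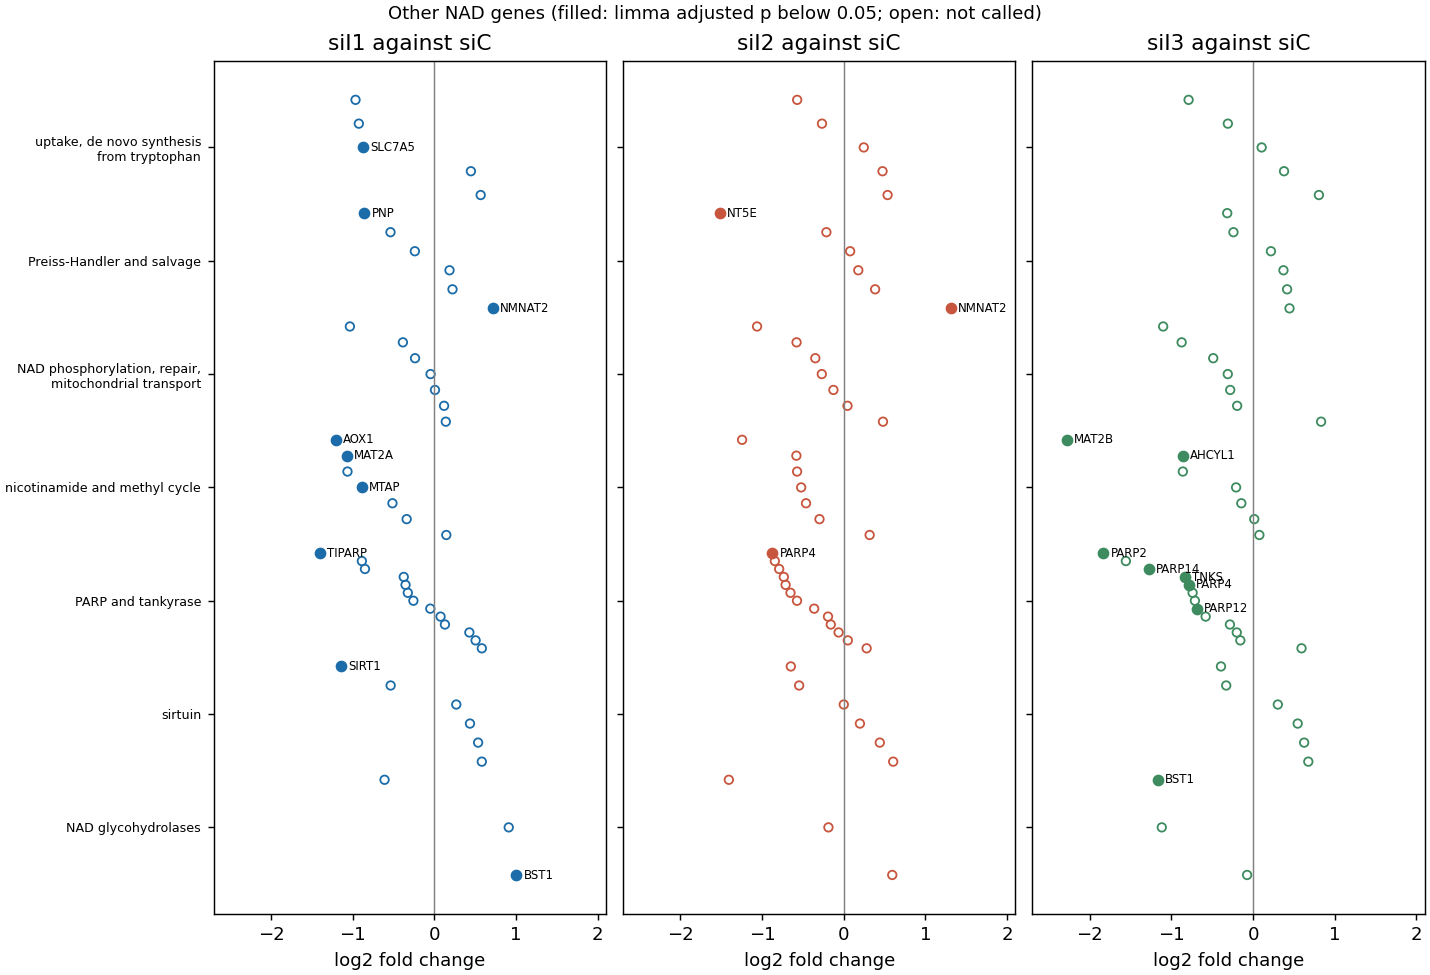
Log2 fold changes against siC on the log2(FPM + 1) scale (horizontal axes) for the 47 other NAD genes tested, by list, with filled points for genes called by limma at an adjusted p below 0.05 and open points for the rest. MAT2B lies lowest at -2.28 in siI3 and NMNAT2 highest at 1.31 in siI2.

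Many calls among these other NAD genes were near the threshold and were lost when a library was dropped, while the log2 differences of the called genes kept their direction. SIRT1 in siI1, for example, ran from -1.39 to -0.97 over these fits, PNP in siI1 from -0.93 to -0.74, AHCYL1 in siI3 from -0.98 to -0.75 and PARP12 in siI3 from -0.82 to -0.51. TIPARP in siI1, NMNAT2 and NT5E in siI2 and MAT2B in siI3 kept the call whichever library was dropped, and PARP14 in siI3 lost it without siC replicate 1. The remaining 8 genes called in siI1, namely SLC7A5, NMNAT2, PNP, AOX1, MAT2A, MTAP, SIRT1 and BST1, were each no longer called on dropping replicate 1 or replicate 3 of either siC or siI1. All of them but AOX1 and MAT2A also lost it without siI1 replicate 2, SLC7A5 and BST1 without siC replicate 2, NMNAT2 without siI2 replicate 1 and BST1 without siI3 replicate 1. In siI3, AHCYL1, PARP2, PARP4, BST1, PARP12 and TNKS lost it on dropping replicate 1 or 3 of siC, or replicate 1 or 2 of siI3. PARP12 and TNKS also lost it without any 1 of the siI1 libraries or siI2 replicate 1, and PARP12 without siC replicate 2. PARP4 in siI2 lost it without replicate 1 or 3 of siC, siI1 or siI2. Over these fits the number of other NAD genes called ran from 1 to 16 in siI1, from 2 to 9 in siI2 and from 1 to 17 in siI3. The share of all genes called in these fits is not given here, so the ranges are not read as a trait of the NAD genes.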

How the data were processed

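Total RNA depleted of ribosomal RNA was sequenced in 12 libraries, grouped by their titles. Per the submitters' processing notes, cutadapt 1.6, TopHat2 2.0.13, the hg19 build, featureCounts 1.4.6 and edgeR 3.12 were used; strand and annotation settings were not given in the sources used here. Deposited FPM values are a signal scaled by the authors; in every library 100% of values were whole multiples of 1 read within 0.01, so reads were recovered. The log2 fold changes and FDR, an adjusted p-value, are the authors' deposited table.

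limma 3.58.1 (R 4.3.3) with a mean-variance trend was fitted to log2(FPM + 1) over all 12 libraries and 13782 genes that passed filterByExpr (minimum count 10), without 92 spike-ins, with Benjamini-Hochberg adjustment within each comparison. In simulated siI1 against siC over 13782 genes it recovered 3.28%, 25.7% and 82.7% of genes changed 1.5, 2 and 4-fold. Over 5 simulated sets these were 335, 335 and 330 genes, and 32 of 67910 unchanged genes were called. Fewer genes were changed in each set than were called in the data, so the rates need not hold there. The changed genes were drawn from those with a mean above 5 FPM, and no GC slope was simulated. These rates therefore do not cover scarcer genes such as NMNAT1. On recovered reads edgeR 4.0.16 called 668 genes higher and 720 lower in siI1, 115 and 70 in siI2, 462 and 908 in siI3, and between knockdowns 161 and 141 (siI1 against siI2), 590 and 414 (siI1 against siI3) and 201 and 74 (siI2 against siI3), and DESeq2 1.42.0 was a further alternative. GC content and transcript length came from GENCODE release 29 (13361 genes, 96.9%, matched by identifier; loess span 0.5 per library).

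Members and lists were chosen with earlier results of these data known. Named genes were the 6 members, other NAD genes called against siC, the most abundant per kilobase of each list, the 3 genes most correlated with each member (1 of those for NNMT is not reported here), and the IGF2BPs; genes next to members were added afterwards by position alone. Floors of 3 reads cover counting error only. TDO2 and PARP10 were not analysed here.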

Additional observations from a re-analysis of the deposited data

How the results depend on the processing

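Each result was recomputed under 23 alternatives and 1 more, without siC replicates 1 and 3, chosen after seeing the data. QPRT in siI1 and siI2 and NNMT in siI1 kept their direction and call under all 23. Under the added one, with 1 control library, they kept their direction, at 1.61, 1.69 and 1.86, but not their calls. Their SEs there were 0.35, 0.35 and 0.38, against 0.25, 0.25 and 0.26 in the main fit. The cause of the lost calls was not tested. The number of the 6 genes called in siI1 against siC ran from 2 to 3 when 1 library was left out, in siI2 it was 1 throughout and in siI3 it ran from 0 to 3; it was 0 in each under the added setting. DESeq2 called 3 in siI1, with NADSYN1 added, 2 in siI2 and 2 in siI3, and upper-quartile scaling 2 in siI3. Shares of all genes called are not given here for most alternatives, among them DESeq2, upper-quartile scaling and the fits with libraries left out. Nothing about the genes is read from such counts. Between siI1 and siI2 the count was 1, against 0, with a pseudocount of 4, DESeq2, only the 6 libraries compared, the GC and length correction, or that with the replicate block, and it ran from 0 to 1 when 1 library was left out. Of the other NAD genes, 1 was called in siI1 and 3 in siI3 with no low-read filter, which tests more genes, and 15 in siI3 by DESeq2. Same-numbered libraries were not paired in the main fit. Deviations from the group mean correlated between siC and same-numbered knockdown libraries at -0.455 to 0.265. With 3 libraries per group, and the GC slopes of siC within these deviations, such values cannot show if the libraries were prepared together. With the replicate block 3 other NAD genes were called in siI1 and 5 in siI3, and 4 and 3 with the GC correction added. Leaving out 1 library gave 1 to 16, 2 to 9 and 1 to 17 in siI1, siI2 and siI3, and the added setting 0.

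Differences that changed sign were all uncalled. NADK in siI1 was at -0.16 after GC correction, with or without the block, and at -0.23 in the added setting, where NADK in siI2 was at -0.14. NAMPT was at 0.14 in siI1 and 0.30 in siI2 after GC correction, with or without the block. NADSYN1 between siI1 and siI3, at 0.00, was at -0.0316 by edgeR, -0.019 by DESeq2, -0.017 by RLE scaling, -0.0593 by upper-quartile scaling and -0.0388 after GC correction, with or without the block. Leaving out 1 library gave ranges of -0.0764 to 0.23 for NADK in siI1, -0.0152 to 0.32 in siI2 and -0.19 to 0.0928 between siI1 and siI2. They were -0.12 to 0.0774 for NADSYN1 between siI1 and siI3 and -0.41 to 0.0895 for NAMPT between siI1 and siI2. For NMNAT1 they were -0.33 to 0.15 between siI1 and siI2, -0.0597 to 0.35 between siI1 and siI3 and -0.0044 to 0.44 between siI2 and siI3, and for QPRT between siI1 and siI2 -0.23 to 0.11. Depth limits NMNAT1 most, at 3 to 28 reads.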
